A study of Mus musculus with 15 samples.

Results

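Keratin genes were taken as every non-control probe of the array whose gene name begins with Krt followed by a number, which gave 67 probes for 52 genes among 55681 probes. RNA came from 15 whole liver tumors of C57BL/6J mice, each hybridised to its own single-colour array. Hepatocellular carcinoma (HCC) of p53f/f mice, hepatocellular carcinoma of p53LKO mice and intrahepatic cholangiocarcinoma (ICC) of p53LKO mice gave 5 arrays each. The p53f/f mice carry floxed p53 alleles, and p53LKO mice have lost p53 in the liver. The Cre line behind the deletion is not given in the sources used here. All mice, the p53f/f controls included, had received carbon tetrachloride (CCl4), a hepatotoxin that causes chronic liver damage and fibrosis, at 0.5 µl per g body weight intraperitoneally every 3 days for 16 weeks by the labels, while the study's text states another injection frequency. The study's text gives ages at which mice were examined, but the age of the animal behind each array and the sex of the mice with ICC are not given in the sources used here, and the HCC came from male mice by the study's text. Replicates 4 and 5 of p53f/f HCC were 2 tumors of mouse 3717, and mice 3731, 3733, 3976 and 5283 each gave both an HCC and an ICC.

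Keratins are the intermediate filament proteins of epithelial cells and assemble only as pairs of a type I and a type II chain. Hepatocytes hold almost solely the pair of Krt8 (type II) and Krt18 (type I), whereas bile duct cells add Krt7 and Krt19, which is why the latter serve as biliary markers in liver pathology. Other keratins belong to the basal or upper layers of skin and similar epithelia, or to hair and nail. The study stained CK7, the product of Krt7, to detect biliary differentiation, so that Krt7 and the HCC and ICC labels are not independent measures.

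The probes of Krt7, Krt19, Krt42 and Krt14 are shown first, because most of the rises in ICC rest on them and because their sequences show which stretch of each transcript was measured. The Krt7 probe lies at chr15:101253718-101253777 (mm9, plus strand), the Krt19 probe at chr11:100002392-100002451 (minus strand) and the Krt42 probe at chr11:100128252-100128311 (minus strand), by the coordinates in the array files. For the Krt14 probe the files give no position. All letters are in lower case because no single stretch of these 60-mers is singled out.
Krt7: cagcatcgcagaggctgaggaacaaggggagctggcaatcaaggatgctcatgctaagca
Krt19: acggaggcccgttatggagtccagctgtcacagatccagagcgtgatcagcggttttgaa
Krt42: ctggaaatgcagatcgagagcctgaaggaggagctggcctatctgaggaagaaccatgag
Krt14: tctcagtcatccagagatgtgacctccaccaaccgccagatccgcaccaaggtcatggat

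Levels below are log2 signals relative to the 75th percentile of the same array, so that a level of 0 equals that percentile. Levels of different probes are not comparable with each other. A gene is represented by its brightest probe. Each comparison was fitted with limma over the probes that passed a filter, a signal well above background in 3 or more tumors of either group, and a probe was called changed at an adjusted p (Benjamini-Hochberg over all probes tested) under 0.05 and a fold change over 2. The 3 comparisons share arrays, so their results are given side by side and not as independent evidence. The share of probes well above background was 55.1% to 70.1% in p53f/f HCC, 37% to 62.1% in p53LKO HCC and 42.5% to 47% in ICC, and it was lowest on the lower row of each slide, where all 5 ICC arrays but only 2 of the HCC arrays (p53LKO replicates 1 and 2) lay. Trp53, the targeted gene, had a mean of -1.01 ± 0.28 (SD, n = 5) in p53f/f HCC against -3.09 ± 0.46 in p53LKO HCC and -3.07 ± 0.70 in ICC. It was lower in both p53LKO groups at this probe, whose position relative to the deleted exons was not examined.

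Of the 67 keratin probes, 18 stood well above background on all 15 arrays and 17 on none. Between 18 and 37 of the 52 genes were above background on a given HCC array, and 23 or 24 on a given ICC array. In all, 30 genes were tested in at least 1 comparison, 14 of them were called, and the other 22 were too dim on too many arrays to be tested.

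In the comparison of p53LKO ICC with p53LKO HCC, which sets the 2 tumor types against each other in the same genotype, 7 of 28 keratin probes were higher and 3 were lower, each for a different gene. The higher genes were Krt19, Krt42, Krt14, Krt7, Krt75, Krt20 and Krt222, and the lower ones Krt5, Krt31 and Krt23. Among all 32670 probes tested, 12.9% were called higher and 13.4% lower, against 25% of the keratin probes higher. The median difference over the 26 keratin genes tested was -0.17 on the log2 scale and that over all probes -0.16. Tumors formed later in p53f/f mice by the study's text, so genotype and age cannot be told apart between the HCC groups. Between p53LKO and p53f/f HCC, no keratin probe was called higher and 6 of 31 were lower, beside 3.64% and 16% of all 36086 probes. The lower genes were Krt75, Krt222, Krt36, Krt14, Krt6b and Krt80. Krt14, Krt75 and Krt222 were thus lower in p53LKO HCC than in p53f/f HCC and higher in ICC than in p53LKO HCC, a pattern that uses the same 5 p53LKO HCC arrays on both sides. The rise in ICC was lost under 16 of 24 alternatives for Krt75 and 10 of 26 for Krt222, and under none of 25 for Krt14.

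**Figure D1:**
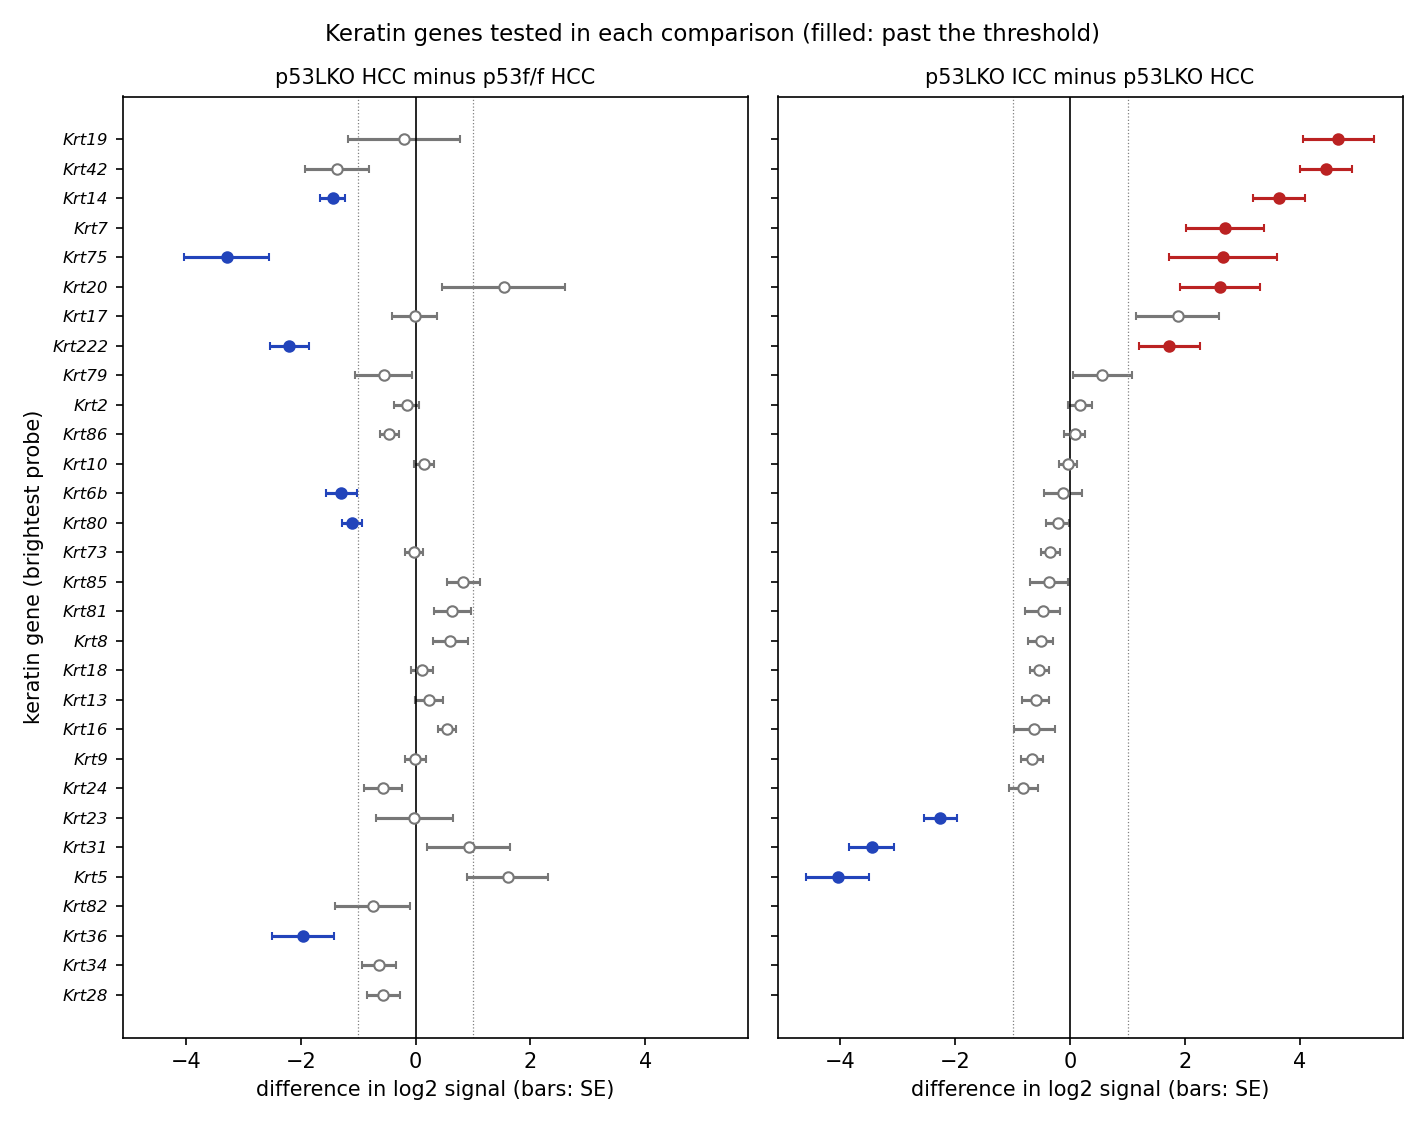
Difference in log2 signal for each keratin gene tested (points, with SE as bars) in p53LKO HCC minus p53f/f HCC (left) and p53LKO ICC minus p53LKO HCC (right), with genes in rows, dotted lines at a 2-fold change and filled points for calls. All 6 calls on the left lie below 0, and on the right Krt19 at 4.67 and Krt5 at -4.05 are the ends of the range.

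Krt8 and Krt18, the hepatocyte pair, were above background on every array, and neither was called in any comparison. Krt8 read 7.10, 8.30, 7.79, 6.88 and 6.90 in replicates 1 to 5 of p53f/f HCC, 7.88, 8.48, 7.46, 8.18 and 7.96 in those of p53LKO HCC and 7.31, 7.33, 7.69, 7.20 and 7.85 in ICC. The 3 groups overlapped. The difference was 0.60 (95% interval -0.07 to 1.27, adjusted p = 0.153) for p53LKO against p53f/f HCC, and -0.52 (-0.99 to -0.04, adjusted p = 0.0727) for ICC against p53LKO HCC, by limma. Neither passed the threshold, although the interval of the first leaves room for a 2.42-fold rise. A second Krt8 probe gave similar differences of 0.70 and -0.58, also without a call.

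Krt18 read 8.25, 8.63, 8.53, 7.99 and 8.11 in HCC of p53f/f mice, 8.28, 8.72, 8.07, 8.62 and 8.39 in HCC of p53LKO mice and 7.71, 7.85, 8.01, 7.81 and 7.98 in ICC. All 5 ICC values lay below all 5 p53LKO HCC values, and the limma difference of -0.54 ± 0.16 (SE) had an adjusted p of 0.0206. It stayed under a 2-fold change and was therefore not called. Between the HCC groups the difference was 0.12 (95% interval -0.30 to 0.53, adjusted p = 0.671). Neither chain of the hepatocyte pair was thus called in ICC. Of 16 hepatocyte marker genes that are not keratins, 9 were called lower in the same comparison, beside 13.4% of all probes. The median difference over the 16 was -1.63. Albumin (Alb), the main plasma protein made by hepatocytes, fell by 1.91 on the log2 scale (adjusted p = 0.00860 by limma), and all 16 markers were above background on every ICC array. In bulk tumor RNA, fewer cells of a type and less RNA per cell cannot be told apart.

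Krt19, the type I biliary keratin, separated ICC from every HCC. It read -3.65, -2.31, -2.48, -4.47 and 0.88 in HCC of p53f/f mice, -1.24, -1.61, -1.74, -3.80 and -4.64 in HCC of p53LKO mice, and 2.29, 1.59, 1.77, 1.85 and 2.81 in ICC. The lowest ICC value was above the highest HCC value, which came from the second tumor of mouse 3717. Krt19 was 25.4-fold higher in ICC than in p53LKO HCC (log2 difference 4.67 ± 0.62, SE, adjusted p = 0.000304 by limma) and 22.2-fold higher than in p53f/f HCC (4.47 ± 0.81, adjusted p = 0.00251). With normexp background correction these log2 differences were smaller, at 3.45 and 3.16, and both were called. The exact permutation test gave p = 0.00794 for both, the smallest value that 252 splits of 5 against 5 arrays allow. Within the lower row, which held 2 p53LKO HCC and 5 ICC arrays, the difference was 3.49 (adjusted p = 0.00155), and within the second slide, with 3 and 4 arrays, it was 5.40 (adjusted p = 0.00197), both by limma. On the second slide, whose only p53f/f tumor was the second one of mouse 3717, ICC exceeded p53f/f HCC by 1.13, and on the first slide, with 4 p53f/f HCC and 1 ICC, by 5.52, values given without a test because 1 arm held a single array. The HCC groups did not differ beyond their spread in Krt19 (-0.20, 95% interval -2.35 to 1.95, adjusted p = 0.895 by limma), and the difference turned to 0.62 without the second tumor of mouse 3717, to 0.10 without p53LKO replicate 4 and to 0.31 without p53LKO replicate 5.

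Krt7, the type II biliary keratin, was close to the detection limit in most HCC. It read -5.11, -5.70, -3.57, -4.51 and -0.93 in p53f/f tumors and -3.18, -3.30, -3.48, -5.11 and -5.88 in p53LKO HCC, where it stood well above background in 2 and 1 of 5 tumors. In ICC it read -1.14, -0.73, -1.15 and -0.75 in the tumors of mice 3731, 3733, 3976 and 3977, and -3.68 in that of mouse 5283, where it was not well above background. Thus 4 of 5 ICC exceeded all p53LKO HCC, but the second tumor of mouse 3717 reached the ICC range of this gene.

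Krt7 was 6.49-fold higher in ICC than in p53LKO HCC (log2 difference 2.70 ± 0.68, SE, adjusted p = 0.00884 by limma; exact permutation p = 0.03175). The probe passed the filter through ICC alone, with 4 of 5 ICC and 1 of 5 p53LKO HCC above background, so the fitted fold is taken against signals mostly near background, and with normexp background correction the log2 difference was 1.23. With the mouse as a block the difference was 2.09 and no longer passed (adjusted p = 0.0750 by limma), and within the lower row it was 1.75 (adjusted p = 0.119 by limma). Against p53f/f HCC it was 5.56-fold higher (adjusted p = 0.0473 by limma, exact permutation p = 0.0556), a call that was lost when any array except p53f/f replicate 5 or ICC replicate 5 was left out, with values of 2.04 to 2.57. On the second slide alone that difference was -0.65. Because only 3 of 10 HCC read Krt7 above background, it was not tested between the HCC groups.

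**Figure D2:**
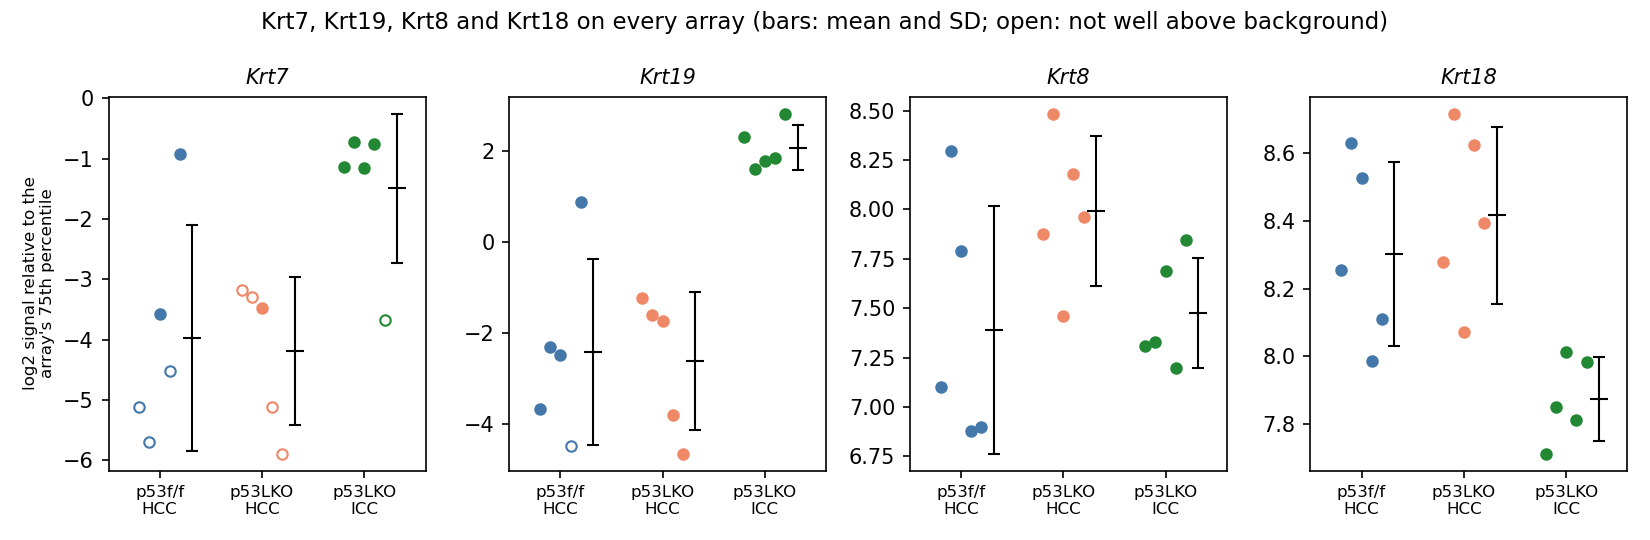
Log2 signal relative to the array's 75th percentile (vertical axis, separate scale per gene) for Krt7, Krt19, Krt8 and Krt18 in 5 p53f/f HCC, 5 p53LKO HCC and 5 p53LKO ICC, each point 1 array, open where not well above background, with the mean and SD at the right of each group. In the Krt19 panel the ICC arrays lie from 1.59 to 2.81, above all HCC, and in the Krt7 panel the ICC of mouse 5283 lies apart at -3.68.

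In the 4 mice that gave both tumors, the ICC exceeded the HCC of the same animal in Krt19 by 4.03 (mouse 3731), 5.39 (mouse 3733), 3.01 (mouse 3976) and 4.42 (mouse 5283) on the log2 scale. In Krt7 the ICC of the first 3 of these animals exceeded the HCC by 2.33, 4.38 and 2.03, whereas the difference in mouse 5283 was -0.38 between 2 tumors that both lacked a signal well above background. Krt8 was lower in the ICC of all 4 mice, by differences of -0.15, -0.85, -0.19 and -0.64, and Krt18 by differences of -0.36, -0.77, -0.26 and -0.73. These within-animal values are descriptive, since 4 pairs cannot reach a p under 0.05 in an exact test.

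**Figure D3:**
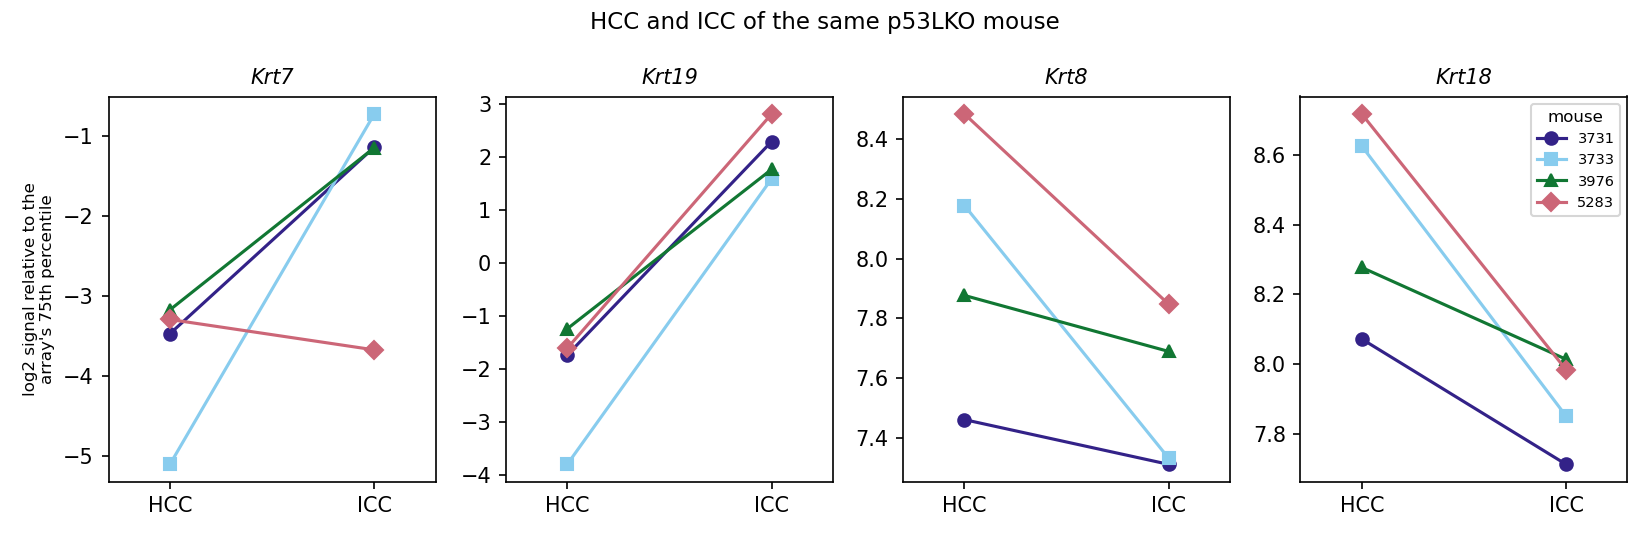
Log2 signal relative to the array's 75th percentile (vertical axis, separate scale per gene) in the HCC and the ICC of 4 p53LKO mice, 1 line per mouse. All 4 lines rise for Krt19 and fall for Krt8 and Krt18, while for Krt7 3 lines rise and that of mouse 5283 falls by 0.38.

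The remaining simple-epithelial keratins were Krt20, a type I keratin known from gut and urinary epithelium, and Krt23, a type I keratin induced in stressed liver. Krt20 read 5.20, 4.30, 2.46, 2.87 and -0.69 in HCC of p53f/f mice, 3.01, 2.22, 4.92, 5.81 and 5.84 in HCC of p53LKO mice and 6.72, 7.18, 6.83, 6.11 and 7.99 in ICC. Every ICC lay above every HCC, and the second tumor of mouse 3717, highest of the HCC in Krt7 and Krt19, was the lowest of all in Krt20. The rise in ICC was 6.09-fold over p53LKO HCC (log2 difference 2.61 ± 0.70, SE, adjusted p = 0.0119 by limma) and 17.6-fold over p53f/f HCC (adjusted p = 0.00641). The p53LKO HCC on the lower row read 3.01 and 2.22 and those on the upper row 4.92 to 5.84. Over p53LKO HCC the log2 difference was 4.35 within the lower row and 1.5 within the second slide, and in the methods' t-test it did not pass after adjustment (adjusted p = 0.0538).

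Krt23 went the other way. It read 4.30, 3.54, 0.35, 1.13 and 2.35 in HCC of p53f/f mice, 3.13, 1.59, 2.21, 2.38 and 2.23 in HCC of p53LKO mice and 0.59, 0.04, 0.14, 0.01 and -0.56 in ICC. All ICC lay below all p53LKO HCC, with a 4.80-fold lower level (log2 difference -2.26 ± 0.29, SE, adjusted p = 0.000244 by limma). So the simple keratins did not move as a block in ICC: Krt7, Krt19 and Krt20 were higher, Krt23 was lower, and Krt8 and Krt18 were not called.

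Among keratins of stratified epithelia, Krt14 and Krt5, which pair with each other in basal cells of the skin, went in opposite directions. Krt14 read -2.30, -2.39, -2.62, -2.21 and -2.34 in HCC of p53f/f mice, -4.51, -3.90, -3.51, -3.30 and -3.87 in HCC of p53LKO mice and -0.57, -0.61, 1.39, -1.34 and 0.24 in ICC, so that none of the 3 groups overlapped. The p53LKO HCC values of replicates 1 and 2 were not well above background. Krt14 was 12.5-fold higher in ICC than in p53LKO HCC (adjusted p = 0.000212 by limma) and 2.72-fold lower in p53LKO than in p53f/f HCC (adjusted p = 0.000786). With normexp background correction the log2 differences were 2.11 in place of 3.64 for ICC and -0.63 in place of -1.44 between the HCC groups, and the latter stayed under 2-fold.

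Krt5 read -0.25, -1.08, -1.32, 1.65 and 0.29 in HCC of p53f/f mice, 0.55, 0.82, 0.19, 2.30 and 3.44 in HCC of p53LKO mice and -2.70, -2.53, -3.05, -2.15 and -2.52 in ICC. All ICC lay below all HCC, and 3 of the 5 ICC were above background. The level in ICC was 16.6-fold lower than in p53LKO HCC (log2 difference -4.05 ± 0.55, SE, adjusted p = 0.000341 by limma) and 5.46-fold lower than in p53f/f HCC (adjusted p = 0.00402). A second Krt5 probe was above background on no array.

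Krt42, a type I keratin of mouse skin and nail, read -3.38, -2.77, -3.49, -3.08 and -1.09 in HCC of p53f/f mice, -3.21, -4.17, -3.03, -4.63 and -5.61 in HCC of p53LKO mice and 0.43, -0.21, 0.25, 0.14 and 1.02 in ICC. Every ICC exceeded every HCC, the second tumor of mouse 3717 was the highest HCC, and 2 of the 5 p53LKO HCC were above background. The ICC level was 21.9-fold higher than in p53LKO HCC (log2 difference 4.45 ± 0.46, SE, adjusted p = 8.07e-05 by limma). This fitted fold too is taken against signals mostly near background, since the probe passed the filter through ICC alone, and with normexp background correction the log2 difference was 2.50. Its log2 differences from p53LKO HCC and p53f/f HCC were 4.45 and 3.09, beside 4.67 and 4.47 for Krt19. Whether the Krt42 probe printed above also bound other type I keratin transcripts was not tested, and against the other keratin probes it shared most letters with a Krt28 probe, 41 of 58 in the best ungapped alignment.

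Krt75, a type II keratin of the hair follicle, was above background in all 5 p53f/f HCC at -1.48, -0.46, -2.58, -0.95 and -1.39. In p53LKO HCC it read -5.40, -4.37, -7.05, -2.25 and -4.23, with 2 of 5 above background, and in ICC -1.20, -1.37, -1.93, -0.60 and -4.90, with 4 of 5. It was 9.77-fold lower in p53LKO than in p53f/f HCC (adjusted p = 0.00693 by limma), a fitted fold against signals mostly near background, and with normexp background correction the log2 difference was -1.59. The 6.33-fold rise in ICC over p53LKO HCC (adjusted p = 0.0387 by limma) was lost under 16 of 24 alternatives, among them the mouse as a block (log2 difference 2.42, adjusted p = 0.121 by limma) and the removal of any array except p53LKO HCC replicate 4 or ICC replicate 5 (2.06 to 2.77). It too is taken against signals mostly near background, and with normexp background correction the log2 difference was 1.15. As with Krt7, the ICC of mouse 5283 was the one that lacked signal.

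Krt222, a distant relative of the type I keratins, read 5.0, 6.36, 6.13, 5.80 and 5.62 in HCC of p53f/f mice, 3.92, 2.94, 2.87, 4.22 and 3.96 in HCC of p53LKO mice and 6.08, 6.07, 4.63, 6.29 and 3.48 in ICC. No p53LKO HCC reached the lowest p53f/f value, and the level was 4.59-fold lower (adjusted p = 0.000754 by limma). The rise of 3.31-fold in ICC over p53LKO HCC (adjusted p = 0.0233 by limma) did not hold with the mouse as a block (log2 difference 1.57, adjusted p = 0.0549 by limma), nor without p53LKO HCC replicate 2 or ICC replicate 1, 2 or 4, where it was 1.48 to 1.57. ICC and p53f/f HCC overlapped and were not called different (-0.47 ± 0.52, SE). The probe holds a run of CA repeats, and a second Krt222 probe without it was above background on 1 of 15 arrays and was not tested, so the Krt222 values rest on the first probe alone.

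Krt80, a type II keratin of differentiating epithelia, and Krt6b, a type II keratin induced in wounded skin, were lower in both p53LKO groups. Krt80 read 0.35, 0.27, 0.76, 0.17 and 0.42 in HCC of p53f/f mice, -0.55, -1.01, -0.72, -0.85 and -0.44 in HCC of p53LKO mice and -0.76, -0.89, -1.02, -0.53 and -1.46 in ICC. The p53f/f HCC stood above all p53LKO tumors of either type, 2.16-fold over p53LKO HCC (adjusted p = 0.000867 by limma) and 2.51-fold over ICC (adjusted p = 0.00100). The first of these calls was lost with normexp background correction.

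Krt6b lay between -2.58 and -1.93 in p53f/f HCC, between -4.30 and -2.93 in p53LKO HCC and between -4.37 and -3.14 in ICC, where no array read it well above background. In p53LKO HCC 3 of 5 arrays read Krt6b above background, and it was 2.44-fold lower there than in p53f/f HCC (adjusted p = 0.00420 by limma). With normexp background correction Krt6b was not called between the HCC groups. In ICC it was at least 1.36-fold lower than in p53f/f HCC, a bound taken against the dimmest signals that still counted as well above background. Within the upper row alone, the HCC difference was -0.91 and no longer exceeded 2-fold.

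Of the hair keratins, Krt31, a type I chain, read 0.15, 3.28, 4.88, 2.34 and 1.84 in HCC of p53f/f mice, 3.58, 3.34, 2.39, 3.83 and 3.95 in HCC of p53LKO mice and 1.03, -1.04, -0.07, 0.29 and -0.40 in ICC. All ICC were below all p53LKO HCC (log2 difference -3.46 ± 0.40, SE, adjusted p = 0.000141 by limma). Krt36, another type I hair keratin, was above background at its brightest probe in 3 p53f/f tumors and in no p53LKO tumor, so its call between the HCC groups gives only a bound of at least 1.27-fold lower. Of the other 2 Krt36 probes, 1 was above background in 1 p53LKO HCC and the other on no array, and neither was tested. Krt24, a type I keratin of stratified epithelia, was called lower in ICC than in p53f/f HCC (log2 difference -1.38, adjusted p = 0.00755 by limma). It was above background in 4 p53f/f HCC and in no ICC, and its fold change cannot be bounded above 1.

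**Figure D4:**
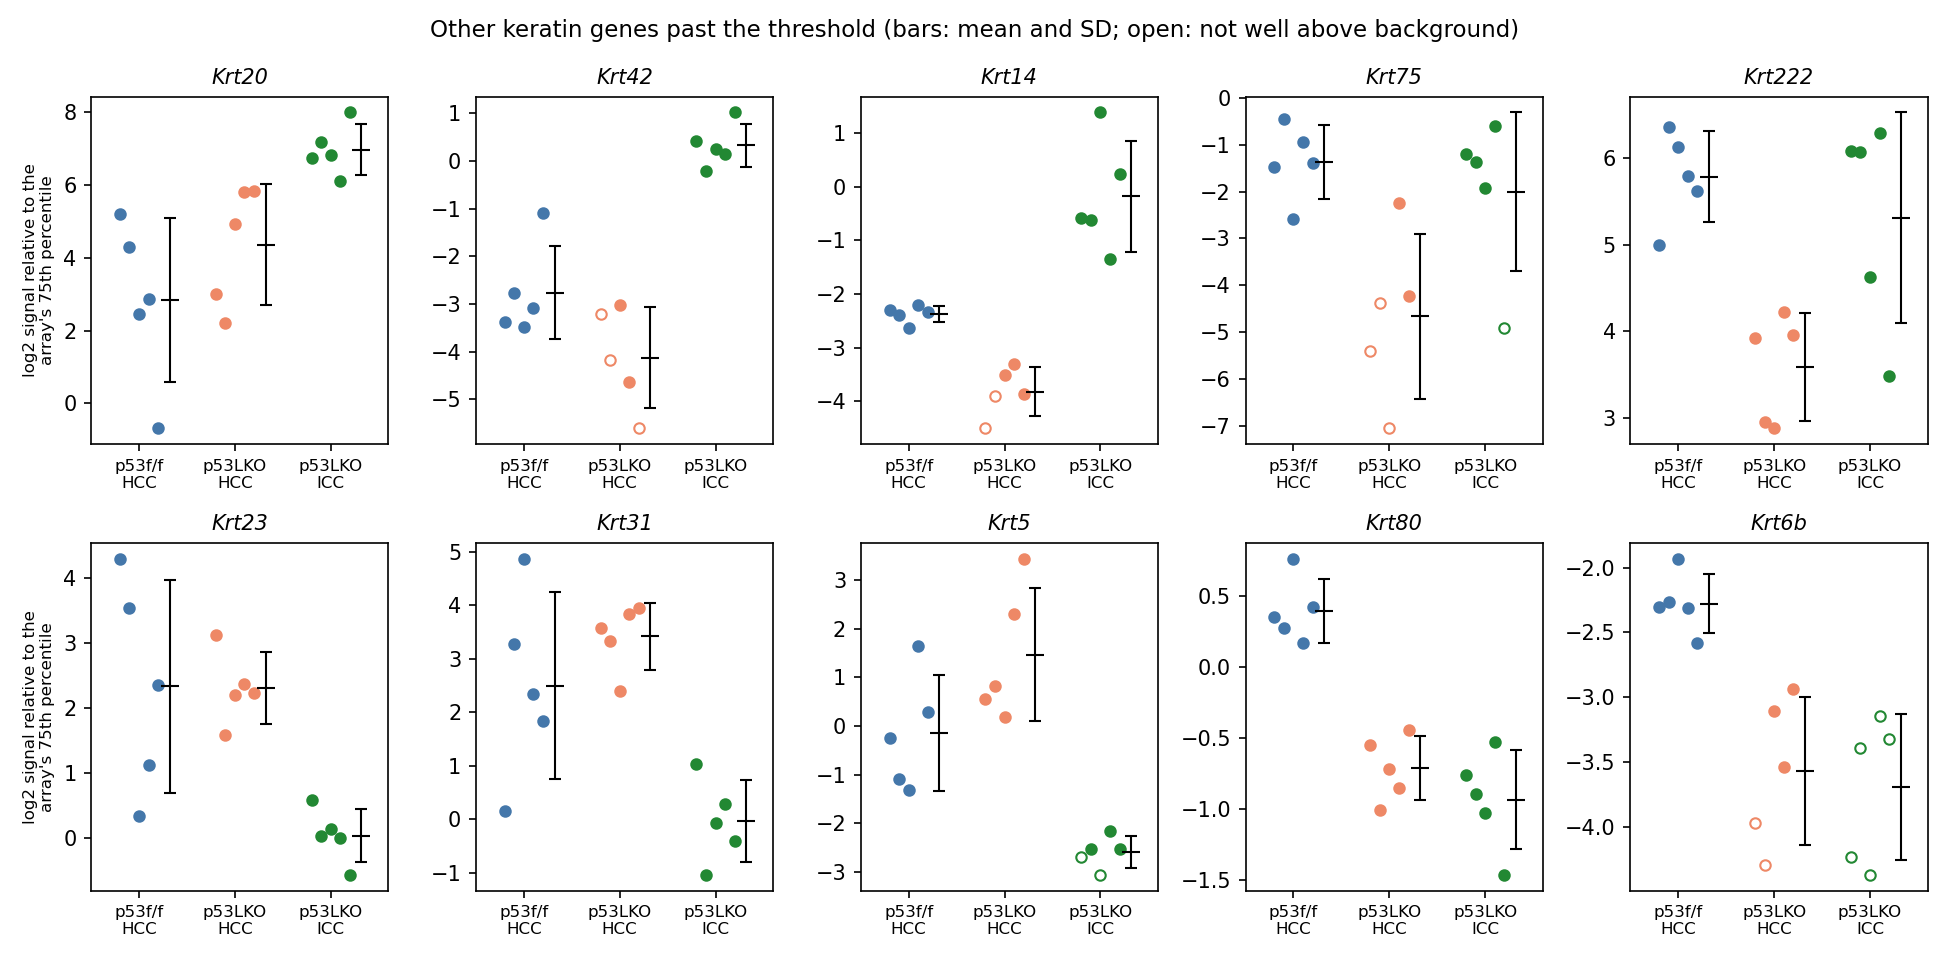
Log2 signal relative to the array's 75th percentile (vertical axis, separate scale per gene) for 10 further keratin genes called in at least 1 comparison, each point 1 of 5 arrays a group, open where not well above background, with the mean and SD at the right of each group. The ICC arrays lie above all HCC in Krt20, Krt42 and Krt14 and below all HCC in Krt5, where they span -3.05 to -2.15.

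The comparison of ICC with p53f/f HCC differs in genotype and tumor type together, and all ICC lay on the lower and all p53f/f HCC on the upper row of the slides, so row cannot be told apart from group there. Of 32 keratin probes, 5 were higher (Krt19, Krt20, Krt42, Krt7 and Krt14) and 6 lower (Krt31, Krt5, Krt23, Krt6b, Krt24 and Krt80), beside 7.43% and 12% of all 35703 probes. Of the lower genes, Krt31 lost its call under 7 of 24 alternatives, Krt23 under 6 of 24 and Krt24 under 5 of 22, and with slide as a block 4 probes were called higher and 4 lower. Without ICC replicate 2 the Krt31 difference was -2.28 and not called (adjusted p = 0.0547 by limma). The keratin median was -0.30 and that of all probes -0.31. The genes called both here and between ICC and p53LKO HCC numbered 8.

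The direction of the calls between the HCC groups depended on the scaling. When arrays were scaled to the spike-in probes, RNA of known amount added to each sample, the median difference of all probes moved from -0.12 to 0.62, and 6 keratin probes were called higher (Krt5, Krt16, Krt81, Krt85 and both Krt8 probes) and 2 lower (Krt75 and Krt222). Krt80, Krt14, Krt6b and Krt36 had differences of -0.37, -0.71, -0.55 and -1.22 under that scaling and were not called. For ICC against p53f/f HCC the split moved from 5 higher and 6 lower to 6 higher and 1 lower, with the median of all probes going from -0.31 to 0.43. Between ICC and p53LKO HCC the split of 7 higher and 3 lower was unchanged.

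The genes tested but not called in any comparison numbered 16, Krt8 and Krt18 included. Their brightest probes were above background on all 15 arrays for Krt2, Krt8, Krt9, Krt10, Krt13, Krt16, Krt18, Krt73, Krt79, Krt81 and Krt85, and on 5 to 14 arrays for Krt17, Krt28, Krt34, Krt82 and Krt86. For Krt13, the spot of p53f/f replicate 1 was marked as an outlier by the scanner software and left out, so 4 values entered that group. Krt17, a type I keratin of wounded and stressed epithelia, exceeded 2-fold without passing the adjusted p. It read -1.82, -2.74, -0.50, -4.68 and -0.92 in ICC, 4 of 5 above all p53LKO HCC, with a log2 difference of 1.87 (95% interval 0.29 to 3.44, adjusted p = 0.0530 by limma). It had 3 of 5 arrays above background in each group. Between the HCC groups, Krt16, a partner of the Krt6 chains, had 5 of 5 p53LKO values above all p53f/f values and an adjusted p of 0.0213 by limma, with a difference of 0.55 that stayed under 2-fold.

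By its accession, the probe named Krt83 in the files, a type II hair keratin, carries the symbol Krt87 in RefSeq (GRCm38.p6). It read above background on 1 array, whereas the brightest probes of Krt85 and Krt81, also type II hair keratins, did so on all 15. Between the HCC groups the differences were 0.83 for Krt85, 0.64 for Krt81 and 0.60 for Krt8, and between ICC and p53LKO HCC -0.37, -0.48 and -0.52. The other 2 Krt85 probes disagreed: 1 was above background on all arrays and differed by 0.05 and -0.62 in the same comparisons, and the other was above background on 1 array. The Krt81 and Krt83 probes had 51 identical letters of 55 in their best ungapped alignment. Whether signal at these hair keratin probes came from transcripts of other keratins was not tested.

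Partners of keratin filaments were read from a list of 20 desmosome and plakin genes, which anchor keratin at cell junctions. Between ICC and p53LKO HCC 16 were tested, 3 were higher, 4 lower and 9 not called, with a median of -0.17. Among all probes 12.9% were higher and 13.4% lower, with a median of -0.16. Dsg1a, a desmosomal cadherin of skin, was above background in all ICC and in no HCC of either genotype. It passed the filter through ICC alone, so only a bound of at least 66.8-fold higher than in p53LKO HCC is given. Itgb4, the integrin chain that ties keratin to the basement membrane in hemidesmosomes, was higher by 4.84, and Perp, a p53 target found in desmosomes, by 1.53. The lower genes were Ppl, a plakin linking keratin to desmosomes (-2.73), Pkp2 (-1.77) and Pkp4 (-1.18), both plakophilins, and the plakin Eppk1 (-1.19). Between the HCC groups 1 of 16 was called, Perp, which was lower by a log2 difference of -2.02 in p53LKO HCC (adjusted p = 0.0493 by limma).

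Of 16 other intermediate filament genes, 13 were tested between ICC and p53LKO HCC. Vim, the filament protein of mesenchymal cells, was higher by 1.81 on the log2 scale, and Sync by 2.11. Nefh, a neurofilament chain above background in 1 of 5 p53LKO HCC and 4 of 5 ICC, was called higher as well. It passed the filter through ICC alone, so this call is taken against signals mostly near background. The nuclear lamins Lmnb1 and Lmnb2 differed by -1.04 and -1.48. Lmnb1 was the only one called between the HCC groups, 2.14 higher in p53LKO HCC.

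Markers of other cell types were read beside the keratins, and their part in the keratin results was not tested. Of 15 biliary markers that are not keratins, 13 were tested between ICC and p53LKO HCC, 3 were higher and 3 lower, beside 12.9% and 13.4% of all probes. Between the HCC groups 12 were tested and none was called. Of 16 hepatocyte markers, 3 were lower in p53LKO HCC, beside 16% of all probes called lower there. Epcam, a surface protein of bile duct and progenitor cells, was above background in all ICC and in no p53LKO HCC. It passed the filter through ICC alone, so only a bound of at least 94.0-fold higher is given. Spp1 (osteopontin) was higher by 4.73 and Cd24a by 2.57, while Cldn7, Slc4a2 and Prom1 differed by -2.52, -1.35 and -1.26. The summed biliary level was 5.90 to 6.66 in p53LKO HCC and 6.81 to 7.73 in ICC, and Muc1 was above background in no ICC. The mean log2 level over the 15 genes overlapped. It was 0.66 in p53LKO HCC replicate 1 against 0.57, 0.60 and 0.63 in ICC replicates 3, 4 and 5.

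Mesothelial cells, which cover the liver surface, also hold Krt7, Krt8, Krt18 and Krt19. Their 7 measured markers summed to -0.36 to 1.66 in p53f/f HCC, -0.87 to 1.28 in p53LKO HCC and 3.47 to 5.49 in ICC, and 2 of the 4 tested were higher in ICC: Msln (mesothelin) by 6.01 and Wt1 by 2.39 on the log2 scale. The mean log2 level over the 7 genes did not separate the groups, with ICC replicates 4 and 5 at -2.30 and -2.39 and the second tumor of mouse 3717 at -2.07, and 2 to 7 of the 7 were above background in a given ICC against 1 to 7 in a given HCC. The other tested markers, Cldn15 and Lrrn4, had differences of 1.44 and -1.20 and were not called. Upk3b, a more selective mesothelial marker, was above background in 2 of 5 ICC, those of mice 3731 and 3976, and in 2 of the 10 HCC. Of 9 fibroblast and stellate cell markers, 7 were higher in ICC and none lower, with summed levels of 6.27 to 8.02 in p53LKO HCC and 8.97 to 9.80 in ICC. Among all probes 12.9% were called higher and 13.4% lower in this comparison.

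The second tumor of mouse 3717, labelled HCC, was the only HCC with Epcam above background (-1.27, against 1.34 to 3.31 in ICC). It had the highest biliary (6.22) and mesothelial (1.66) sums of the p53f/f HCC and a hepatocyte sum of 11.9, within the 11.7 to 12.4 of its group. Krt7, Krt19 and Krt42 were all highest among HCC in this tumor. Without it, ICC exceeded p53f/f HCC by 3.23 in Krt7 and 5.29 in Krt19 on the log2 scale, in place of 2.47 and 4.47.

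**Figure D5:**
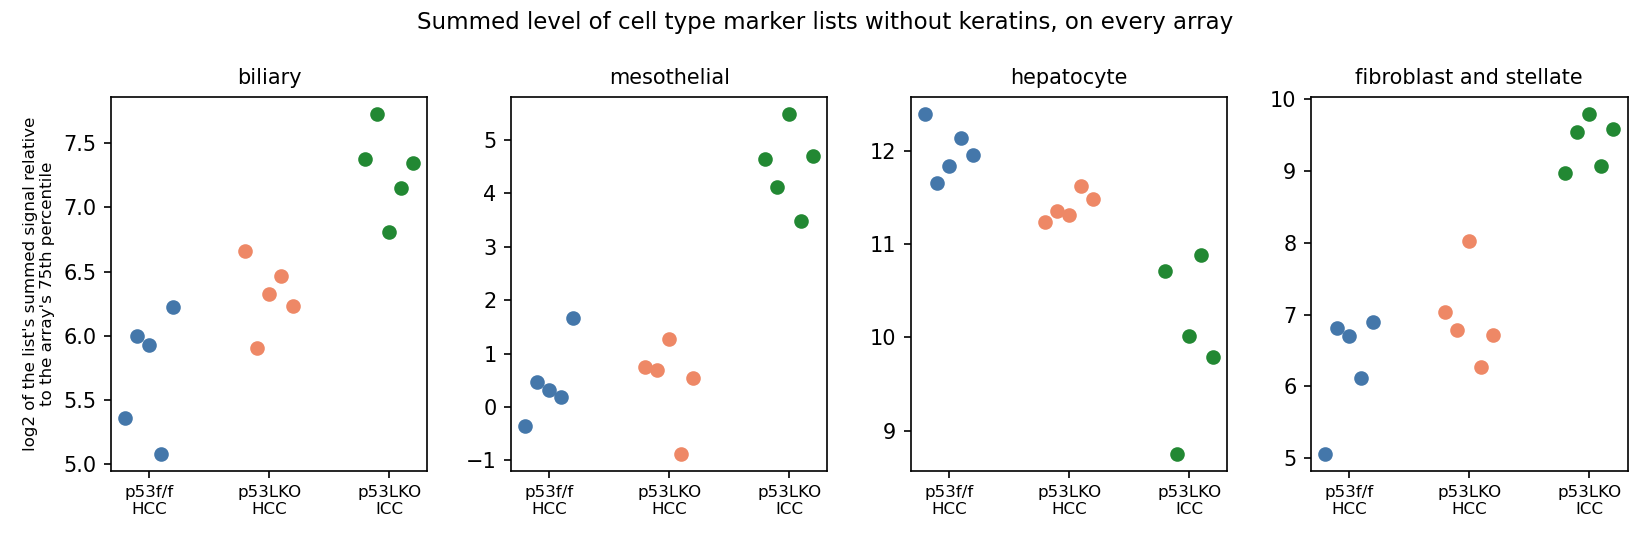
Log2 of the summed signal of 4 marker lists without keratins, relative to the array's 75th percentile (vertical axis, separate scale per list), for each of 15 arrays in 3 groups of 5. In these sums, ICC arrays lie above all HCC arrays in the biliary, mesothelial and fibroblast lists and below them in the hepatocyte list, where they span 8.76 to 10.9. By mean log2 level, the biliary, mesothelial and hepatocyte lists overlap between ICC and HCC.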

How the data were processed

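The 15 arrays (Agilent SurePrint G3 Mouse 8x60K) were scanned and read by the authors with Agilent Feature Extraction 10.7.3.1. The deposited intensity used was the background-subtracted and detrended signal per spot. The authors' deposited table of log2 values, centred on genes, matched these signals and served only as an alternative between the HCC groups. Flagged outlier spots were left out, spots of a probe averaged, and the 75th percentile of the array's non-control probes subtracted after log2. limma 3.58.1 in R 4.3.3 (lmFit and eBayes) compared 5 against 5 arrays. The scripts were tested on simulated data. Tumors of 1 group came from separate mice, except 2 of mouse 3717. Bounds used, per array, the lowest signal of probes well above background. The 4 same-mouse pairs come from the labels, and the correlations of their deviations lay between -0.14 and 0.07. The members and lists were chosen with earlier results of these data known. By the rule for names, Krt7, Krt19, Krt8, Krt18 and every called keratin are named. Of 52 keratin symbols, 51 matched a RefSeq accession. With 5 arrays a group, precision rests on their number, and p-values set the difference between groups against the spread between these tumors. The main fit treated the 2 tumors of mouse 3717 as independent. Alternatives were other background corrections, scalings, filters, tests, blocks for mouse, slide and row, and leaving out each array. Each slide alone was added after seeing the data.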

Additional observations from a re-analysis of the deposited data

Results flagged for a closer look

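Among 90 groups of arrays, 1 for each keratin gene tested and tumor group, 3 held an array whose distance to its nearest neighbour took up an unusually large part of the group's range, where chance gives about 4.5. Krt7 in the ICC of mouse 5283 read -3.68, below the other ICC at -1.15 and higher. Krt34 read -2.42 in the ICC of mouse 3977, above the other ICC at -4.40 and lower, and no ICC array read this hair keratin well above background. Krt82 read -5.86 in the p53f/f HCC of mouse 3716, below the other tumors of its group at -3.36 and higher, and was not well above background there.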

How the results depend on the processing

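Between ICC and p53LKO HCC, 10 keratin probes were called, 5 when only probes above background on every array were kept, and 8 or 11 with the mouse as a fixed or random replicate block. Krt7 lost its call in the Mann-Whitney test (2.70, adjusted p = 0.110), with the fixed block (2.09) and with row as a block or the lower row alone (both 1.75). Between the HCC groups, 6 probes were called against 2 with normexp background correction, 3 with quantile normalization and 2 with the every-array filter. The uncalled Krt19 difference turned to 0.24 with quantile normalization, 0.54 with spike-in scaling and 1.80 on the first slide, was -4.27 on the second slide with its single p53f/f array, and ranged from -0.71 to 0.62 when 1 array was left out. Krt18 turned to -0.13 with the percentile taken over probes above background on all arrays, and Krt8 became a call under spike-in scaling (1.34). For ICC against p53f/f HCC, each slide alone held a single array in 1 arm, assumed to vary like the other arm. Calls are not counted on it, although these fits enter the tallies of lost calls for that comparison. Against p53f/f HCC, 11 probes were called in ICC, 30 with no filter on dim probes (24 higher), 7 with spike-in scaling or the Mann-Whitney test and 6 with the every-array filter. Krt7 there gave 0.70 with normexp, 2.6 with the detected-probe percentile, 1.47 with slide as a block, 2.47 in the methods' t-test and the Mann-Whitney test, 3.58 and -0.65 on the slides alone, and 2.04 to 3.23 with 1 array left out. Krt19 gave 5.52 and 1.13 on the slides alone. Krt8 turned to -0.21 on the first slide and -0.043 with the tumors of mouse 3717 averaged, and ranged from -0.046 to 0.31 with 1 array left out. Krt18 turned to 0.21 with quantile normalization and 0.32 with spike-in scaling. The causes were not tested. Between ICC and p53LKO HCC, Krt19, Krt23 and Krt31 kept their calls under all 26 alternatives, and Krt14, Krt42 and Krt5 under the 25 that tested them, the every-array filter having left them out.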

Other observations

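Markers of squamous and basal epithelium that are not keratins gave few values beside Krt14 and Krt5. Of 11 genes, 5 were tested between ICC and p53LKO HCC, and 2 were higher in ICC, Sprr1a, a precursor of the cornified envelope, by 2.06 on the log2 scale (adjusted p = 0.00784 by limma) and Sbsn by 1.82 (adjusted p = 0.00175 by limma). Of 12 pancreatic acinar markers, 5 were tested and 2 were lower. Of 7 endothelial markers tested 1 was higher, and of 7 macrophage and T cell markers 1 was higher. Among all probes 12.9% were called higher and 13.4% lower in this comparison.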
